A study of Mus musculus with 8 samples.

Results

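Srebf2, Hmgcs1, Idi1, Sqle, Lss, Insig1 and Insig2 are 7 genes of cholesterol synthesis and of the sterol sensing that controls it. They were taken as a fixed list by name, out of 55341 gene symbols in the GENCODE M21 annotation of the mouse genome (GRCm38, mm10). All 7 had a transcription start site (TSS) in a region marked by histone H3 acetylated at lysine 27 (H3K27ac), as did 12261 genes in all. The H3K27ac regions came from mouse primary hepatocytes (MPH) of wild-type adult male C57Bl6 mice, cultured without serum. MPH were treated for 4 h with 1 µM thapsigargin, which blocks the calcium pump of the endoplasmic reticulum (ER) and causes ER stress (ERS), or with vehicle, 0.04% DMSO. Each treatment had 3 H3K27ac libraries from independent preparations and 1 input library, 8 libraries in all.

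The values available were 3 lists of region positions, called H3K27ac UP (5508 regions), H3K27ac DOWN (3376) and H3K27ac unchanged (23312), with UP and DOWN meaning more or less H3K27ac after thapsigargin. A region was placed in UP or DOWN by the authors' test at an FDR of at most 0.05, and its gaining bins had to number at least 2 times its losing bins for UP, or at most 0.5 times for DOWN. Read counts, signal and test values of single regions were not in the lists, so the depth of the libraries was unknown and no value below has an error between preparations. The lists show which way a region was called and how wide it was, and not by how much H3K27ac changed. A gene was assigned to a class when the TSS of any of its transcripts lay in a region of that class. Of markers for the cells a liver preparation can hold, 7 of 8 hepatocyte markers had a TSS in a region, Cyp2e1 being without. The counts were 1 of 6 for Kupffer cells (Cd68), 1 of 6 for endothelial cells (Stab2), 2 of 6 for cholangiocytes (Sox9 and Spp1) and 0 of 6 for stellate cells.

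Cells sense their sterol supply in the membrane of the ER. When sterols are plentiful, the ER proteins Insig1 and Insig2 hold back SCAP, the escort of the SREBP transcription factors. When sterols run low, SCAP carries SREBP2, the product of Srebf2, to the Golgi apparatus, where proteases release its active part. The released factor binds sterol regulatory elements (SRE) beside sites for NF-Y and SP1 and switches on the enzymes of cholesterol synthesis. Hmgcs1 makes HMG-CoA from acetyl units, Idi1 isomerizes isopentenyl diphosphate, Sqle oxidizes squalene and Lss closes the ring system to give lanosterol. The liver makes much of the body's cholesterol and uses it for bile acids and lipoproteins.

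The promoter sequences are shown for the letters that SREBP2 and its partner NF-Y are known to bind. For 6 genes they are the 200 bases just before the first start annotated in GENCODE or RefSeq, in the direction of transcription and with positions counted back from that start. Capitals mark CCAAT, the NF-Y core (ATTGG when it lies on the opposite strand), and TCACNCCA, the SRE without its last base. The windows are chr15:82146981-82147180 (plus strand), chr13:119690151-119690350 (plus), chr15:59314877-59315076 (plus), chr10:76531388-76531587 (plus), chr5:28071163-28071362 (plus) and chr1:121332590-121332789 (minus), all read from GRCm38. Idi1 had neither run of letters in the 200 bases before its first start. It is shown by 30 bases past that start, chr13:8885822-8885851 (plus), which end with the 2 CCAAT matches that lie closest together.
Srebf2: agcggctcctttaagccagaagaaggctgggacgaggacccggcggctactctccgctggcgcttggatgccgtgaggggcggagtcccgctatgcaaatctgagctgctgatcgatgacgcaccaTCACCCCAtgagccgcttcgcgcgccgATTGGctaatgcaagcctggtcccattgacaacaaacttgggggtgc
Hmgcs1: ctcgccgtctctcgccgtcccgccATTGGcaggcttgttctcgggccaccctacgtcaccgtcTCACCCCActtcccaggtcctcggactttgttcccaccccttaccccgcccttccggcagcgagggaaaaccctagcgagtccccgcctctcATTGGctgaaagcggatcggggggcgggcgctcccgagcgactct
Sqle: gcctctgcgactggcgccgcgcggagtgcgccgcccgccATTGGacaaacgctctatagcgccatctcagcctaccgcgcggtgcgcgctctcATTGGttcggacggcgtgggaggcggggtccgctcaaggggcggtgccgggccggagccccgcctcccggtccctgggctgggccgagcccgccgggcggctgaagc
Lss: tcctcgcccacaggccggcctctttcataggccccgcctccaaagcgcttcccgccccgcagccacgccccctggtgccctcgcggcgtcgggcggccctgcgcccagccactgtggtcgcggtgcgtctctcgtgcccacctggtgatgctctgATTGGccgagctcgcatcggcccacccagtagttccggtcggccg
Idi1: acgtcaggcttgtgctagATTGGcaATTGG
Insig1: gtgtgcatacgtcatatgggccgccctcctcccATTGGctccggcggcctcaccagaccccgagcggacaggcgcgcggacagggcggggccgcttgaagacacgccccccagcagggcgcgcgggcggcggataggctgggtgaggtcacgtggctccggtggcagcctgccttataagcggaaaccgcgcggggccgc
Insig2: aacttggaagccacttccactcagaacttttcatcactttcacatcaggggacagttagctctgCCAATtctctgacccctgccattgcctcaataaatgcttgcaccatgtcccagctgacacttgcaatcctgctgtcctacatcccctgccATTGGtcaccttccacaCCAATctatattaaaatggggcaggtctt

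The first 5 sequences lay in H3K27ac UP regions, that of Insig1 in an unchanged region and that of Insig2 in a DOWN region. In Srebf2 the SRE letters began at position -74 and an NF-Y match at position -47. In Hmgcs1 the SRE letters began at -137, between NF-Y matches at -176 and -45. Sqle had 2 NF-Y matches, at -161 and -107, Lss had 1 at -45 and Insig1 had 1 at -167. Insig2 had 3, and its window held 48.0% G and C bases, against 61.5% (Srebf2) to 75.5% (Sqle) in the other 5 windows of this length. The CCAAT letters thus preceded the first annotated starts of UP, unchanged and DOWN genes alike, and within these windows the SRE letters were seen in 2 UP genes. For Insig2 this holds for the first start only. A cluster of further protein-coding starts lay 4565 to 4911 bp past it. The CCAAT matches on either side of that cluster began at 3725 and 6032 bp.

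H3K27ac was called UP at the TSSs of Srebf2 and of the 4 synthesis enzymes, DOWN at Insig2 and unchanged at Insig1. The UP genes were 5 of 7, or 71.4%, and among all genes with a TSS in a region 21.4% had a TSS in an UP region. Among protein-coding genes the background was 21.7%, and among genes with at least 4 TSSs, which offer more chances to meet an UP region, it was 22.3%. The DOWN gene was 1 of 7 (14.3%), beside 8.91% of all genes and 8.31% of protein-coding genes. An unchanged region at a TSS was found for 1 of 7, beside 73.7% of all genes. A gene can count in several classes, but none of the 7 did. The list was short and its members were chosen with results of these data known, so no test was made of these shares.

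**Figure D1:**
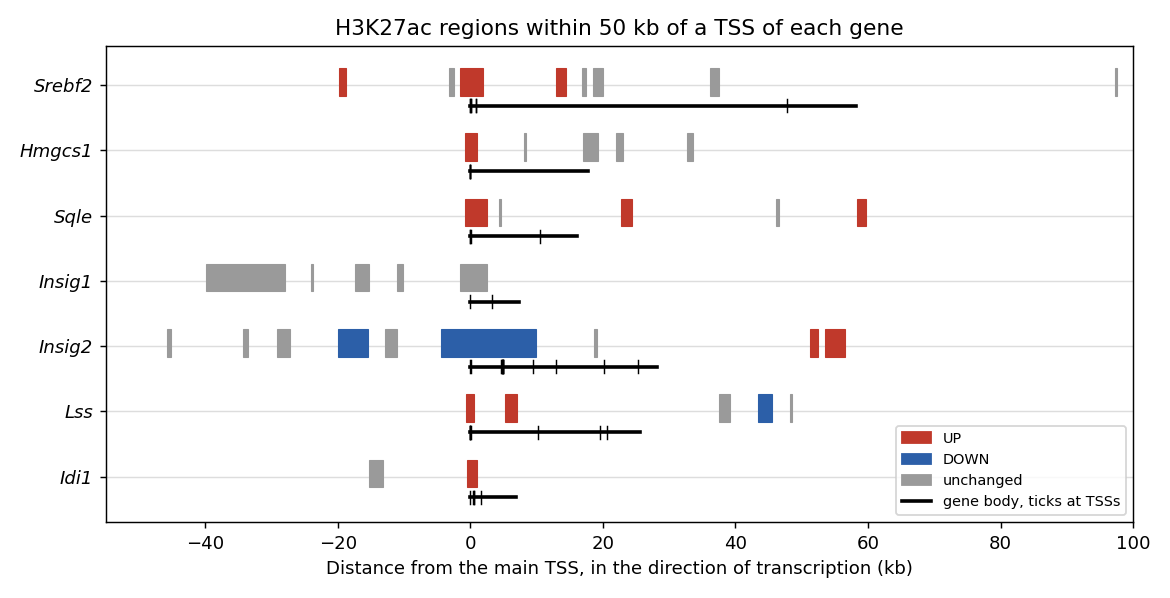
H3K27ac regions within 50 kb of a TSS of each of the 7 genes, with the distance from the main TSS in kb along the direction of transcription on the horizontal axis. Boxes are regions to scale (UP, DOWN or unchanged), black lines gene bodies and ticks TSSs. UP regions cover the main starts of 5 genes, a DOWN region of 14394 bp covers 11 of the 14 starts of Insig2, and the 5 regions of Insig1 are all unchanged.

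Srebf2 (ENSMUSG00000022463.8, chr15:82147181-82205379, plus strand) encodes SREBP2, the main activator of the pathway. Of its 7 TSSs, 6 lay in the UP region chr15:82145692-82149064, which was 3373 bp wide and ran from -1489 to 1883 bp relative to the main TSS, over exonic and intronic sequence. This region was wider than 72.5% of the 2047 UP regions with a TSS, whose median was 2136 bp. A second UP region of 1534 bp lay in an intron, with its near end 12929 bp past the main TSS. Another, of 1035 bp, lay 18777 bp before the main TSS and held the TSS of the neighbouring gene Ccdc134. Besides these 3 UP regions, 5 unchanged regions of 290 to 1466 bp lay within 50 kb of any TSS, 3 of them in introns of Srebf2. The narrowest, at the TSS of Cenpm, was 49537 bp from the nearest Srebf2 TSS but 97328 bp past the main TSS. The remaining TSS, of a short transcript that starts deep in the gene, was 10304 bp from the nearest region, and the nearest DOWN region was 180928 bp away.

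Srebf2 is also the host of Mir33, a microRNA that represses cholesterol export. Mir33 lies on the same strand, 50941 bp past the main TSS, and no region lay at it. The nearest region was an unchanged region of 1380 bp at 13454 bp, and the nearest UP region was at 36479 bp. The gain of H3K27ac called at Srebf2 was thus at the host promoter and in the first part of the gene, and not at the microRNA.

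Hmgcs1 (ENSMUSG00000093930.2, chr13:119690379-119708260, plus strand), the cytosolic HMG-CoA synthase, had 4 of 4 TSSs in the UP region chr13:119689633-119691393. At 1761 bp this was narrower than the median UP region with a TSS, 39.2% of which were narrower still. It was the only UP region within 50 kb of Hmgcs1. The other 4 regions were unchanged: 273 bp in an intron, 2253 bp over the 3′ end of the gene, and 1163 and 929 bp downstream. The narrow span around the promoter was thus the changed stretch at this gene. No DOWN region lay within 233326 bp.

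Idi1 (ENSMUSG00000058258.14, chr13:8885501-8892451, plus strand) had 4 of 5 TSSs in the UP region chr13:8884929-8886501, of 1573 bp, and the remaining TSS lay 568 bp outside it. The antisense non-coding gene Gm48574 also starts there, and reads of H3K27ac have no strand, so the region belongs to both. The surroundings were sparse. A single other region lay within 50 kb, an unchanged region of 2040 bp at the TSSs of Wdr37 and Gm48374, and the nearest DOWN region was 2628555 bp away. Of all genes with a TSS in a region, 1.97% had their nearest DOWN region as far or farther, and the median was 123751 bp.

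Sqle (ENSMUSG00000022351.14, chr15:59315077-59331192, plus strand), the squalene epoxidase and a rate-limiting step, had 3 of 4 TSSs in the UP region chr15:59314294-59317568. This region was 3275 bp wide, wider than 71.3% of UP regions with a TSS, and ran from -787 to 2487 bp relative to the main TSS. Further UP regions lay downstream of the gene. The first, of 1699 bp, was 12223 bp from the nearest Sqle TSS, and Washc5 was its nearest protein-coding gene. The second, of 1406 bp, was 47860 bp away, or 58322 bp from the main TSS, and held TSSs of Nsmce2 and Washc5. The 2 unchanged regions near Sqle were 387 and 379 bp wide. UP regions, those at neighbouring genes included, made up 6380 of the 7146 bp of H3K27ac regions within 50 kb of any Sqle TSS, while the nearest DOWN region was at 60809 bp. Sqle is on the authors' list of UBQ genes, those with a broad domain of the promoter mark H3K4me3 in many tissues.

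Lss (ENSMUSG00000033105.12, chr10:76531588-76557138, plus strand), the lanosterol synthase, had 4 of 7 TSSs in the narrowest UP region of the 5 genes, chr10:76530988-76532167, of 1180 bp. Of UP regions with a TSS, 19.2% were narrower. A second UP region in the gene was wider, at 1745 bp, and its near end lay 5255 bp past the main TSS, over exons and introns and with no TSS in it. The remaining TSSs, which start transcripts inside the gene, were 3276 to 13665 bp from a region. A DOWN region of 2174 bp lay 22746 bp from the nearest Lss TSS and held the TSS of Ftcd, a liver enzyme of histidine breakdown. Lss thus had UP regions over its first part and a DOWN region at its downstream neighbour, with unchanged regions of 1670 and 337 bp on either side of the latter.

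**Figure D2:**
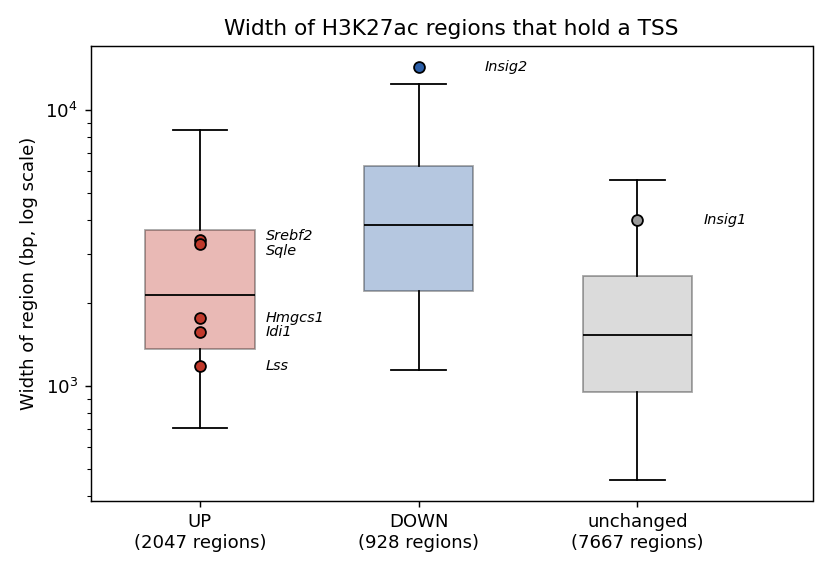
Width in bp (log scale) of all H3K27ac regions that hold a TSS, by class; boxes show the median and quartiles, whiskers the 5th and 95th percentiles, and points the regions at the 7 genes. The UP genes lie between 1180 and 3373 bp on both sides of the UP median of 2136 bp, whereas Insig2 (14394 bp) is above the upper whisker of DOWN regions.

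The UP regions at these TSSs, from 1180 to 3373 bp, were of ordinary width. Of the 5281 TSS regions in this range of widths, 20.7% were UP, 6.65% DOWN and 72.7% unchanged, which is near the background of genes.

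Insig2 (ENSMUSG00000003721.14, chr1:121304353-121332589, minus strand) was the member with the widest region. It is transcribed from alternative first exons, of which a liver form is known. Its DOWN region chr1:121322644-121337037 was 14394 bp wide and held 11 of its 14 TSSs. Of the 928 DOWN regions with a TSS, whose median was 3828 bp, 96.3% were narrower and 33 were wider. The region ran from -4448 to 9945 bp relative to the main TSS. It covered 2 TSSs at 0 and 39 bp, a cluster of 8 TSSs from 4565 to 4911 bp and 1 at 9398 bp downstream, so the starts of all protein-coding Insig2 transcripts shared a single DOWN call. The TSS of Gm37174 also lay in it. The other 3 TSSs, of retained-intron transcripts, were 1126 to 6222 bp from a region.

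A second DOWN region of 4502 bp lay 15421 bp before the first Insig2 TSS, with no TSS in it and Insig2 as its nearest protein-coding gene. DOWN regions summed to 18896 of the 28416 bp of H3K27ac regions within 50 kb. UP regions were present too: 2884 and 1190 bp wide, they lay past the 3′ end of the gene, 28299 and 25979 bp from its nearest TSS. That TSS was of a retained-intron transcript and in no region. The same UP regions were 44172 and 41852 bp from the nearest protein-coding TSS of Insig2, and 53570 and 51250 bp from its main TSS. The 5 unchanged regions were 452 to 1866 bp wide, 1 in an intron and 4 upstream, of which the widest held the TSS of 2210011K15Rik. Width goes with class in these lists: of 207 TSS regions of at least 10 kb, 39.1% were DOWN, 30.9% UP and the other 62 unchanged. Of TSS regions of any width, 928 were DOWN, 2047 UP and 7667 unchanged. The DOWN call at Insig2 thus stood in a band of widths where both DOWN and UP were more frequent than over all TSS regions.

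Insig1 (ENSMUSG00000045294.11, chr5:28071363-28078662, plus strand) has the same role as Insig2 but is itself switched on by SREBP. The main TSS of its 2 lay in the unchanged region chr5:28069874-28073887, with the non-coding gene Gm26608. At 4014 bp this region was wider than 89.8% of the 7667 unchanged regions with a TSS, whose median was 1530 bp. The second TSS lay 779 bp outside it. Upstream were 4 more unchanged regions, of 811, 2049 and 266 bp and, 27898 bp from the TSS, of 12029 bp at the non-coding gene Gm43611. The 5 regions summed to 19169 bp, the most after Insig2, and none was UP or DOWN. The nearest UP region was 322196 bp away and the nearest DOWN region 2076555 bp away. With no changed region within 50 kb Insig1 was like 31.4% of genes, but 4.98% had their nearest changed region as far or farther. Insig1 is on the authors' list of LIVER-ID genes, whose broad H3K4me3 domain is a feature of liver above other tissues, and Insig2 is on neither list. Insig1 and Insig2 thus each had a region that was wide for its own class, of 4014 and 14394 bp, and differed in their call. The lists hold no value with which the difference between the calls could be tested.

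**Figure D3:**
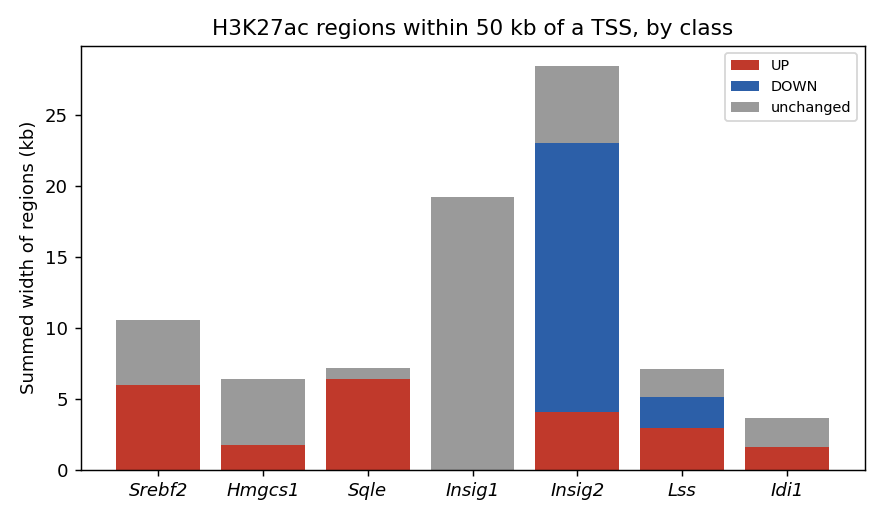
Summed width in kb of the H3K27ac regions within 50 kb of any TSS of each gene, stacked by class. Insig2 has the most (28416 bp, 18896 of them DOWN), Insig1 has 19169 bp of unchanged regions alone, and Idi1 has the least (3613 bp).

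Within 50 kb, 39 regions lay near a TSS of the 7 genes: 12 UP (30.8%), 3 DOWN (7.69%) and 24 unchanged (61.5%). Over all 32196 regions 17.1% were UP and 10.5% DOWN. Without the regions at the members' own TSSs, 7 UP, 2 DOWN and 23 unchanged regions remained. An UP region within 50 kb was found for 6 of 7 genes, beside 53.0% of all genes, but 5 of those 6 already had an UP region at a TSS and Insig2 had UP regions at a distance alone. The UP regions of Insig2 lay 53570 and 51250 bp past its main TSS, and by main TSSs alone 9 UP regions remained in place of 12. A DOWN region was found for 2 of 7, Insig2 and Lss, beside 31.9% of all genes. For 29 of the 39 regions a member was the nearest protein-coding gene, among them 9 of the 12 UP regions and 2 of the 3 that were DOWN. The UP regions were 1035 to 3373 bp wide, with a median of 1636 bp, and the median unchanged region was 879 bp.

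The bodies of the 7 genes overlapped 16 regions, 7 of them at their TSSs. The other 9 were 2 UP regions, in Srebf2 and Lss, 7 unchanged regions and 0 DOWN regions, beside 17.1% UP and 10.5% DOWN over all regions. Past the promoter, the body of Hmgcs1 held 2 unchanged regions, Sqle 1 and Idi1 0.

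The enzymes of the pathway were then read in textbook order, an order laid over the calls after they were seen. With 16 further synthesis genes, 20 enzymes were considered, 19 of them with a TSS in a region. The counts cover the genes named here and are no share of the whole pathway. UP regions lay at 9 of these 19 and unchanged regions at 10, beside 21.4% UP among all genes. The 9 include the 4 member enzymes, and without them 5 of 15 were UP. The UP enzymes made a run of 7 in the main line: Mvd (1696 bp), which forms isopentenyl diphosphate, Idi1 (1573 bp), Fdps (3052 bp), the farnesyl diphosphate synthase, Fdft1 (3556 bp), the squalene synthase, Sqle (3275 bp), Lss (1180 bp) and Cyp51 (1836 bp), the lanosterol demethylase. Ggps1, on the side branch to geranylgeranyl diphosphate, was unchanged. Before the run Hmgcs1 was UP, whereas Acat2, Mvk and Pmvk were unchanged. After it Msmo1 (1501 bp), the methylsterol monooxygenase, was UP, and Tm7sf2, Lbr, Hsd17b7, Ebp, Sc5d and Dhcr7 were unchanged. Nsdhl had no TSS in a region. The 9 UP enzymes were thus Hmgcs1, the run from Mvd to Cyp51 and Msmo1, with unchanged enzymes between them, and the enzymes named after Msmo1 were unchanged or without a region at a TSS.

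**Figure D4:**
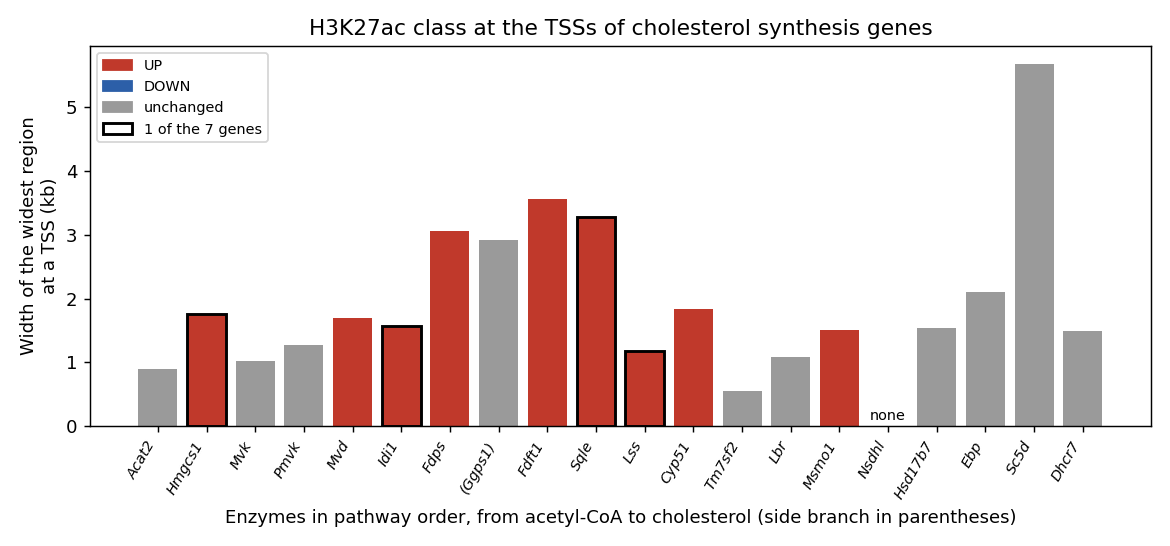
Enzymes of cholesterol synthesis in pathway order on the horizontal axis, with the width in kb of the widest H3K27ac region at a TSS on the vertical axis and its class as colour. Outlined bars are genes of the list of 7. The enzymes from Mvd to Cyp51, 7 in a row apart from the side branch gene in parentheses, are UP. The enzymes drawn are those named in the text.

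Of genes that control SREBP or act beside the INSIG proteins, 10 are reported, all with a TSS in a region. Rnf145 (2129 bp), March6 (3896 bp) and Syvn1 (3187 bp), which encode ubiquitin ligases of the ER membrane, and Erlin1 (3033 bp), an ER membrane protein that works with such ligases, were UP. The escort Scap, the proteases Mbtps1 and Mbtps2, the related factor Srebf1, Rnf139, which is also such a ligase, and Erlin2, the partner of Erlin1, were unchanged. UP calls were thus found at 4 of the 10, beside 21.4% of all genes, and ligases and ERLIN genes were found in both the UP and the unchanged class.

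For uptake, storage and release of cholesterol, 6 of 9 genes had a TSS in a region. Npc2 (2027 bp), a lysosomal cholesterol carrier, and Soat2 (4141 bp), which esterifies cholesterol in hepatocytes, were UP, Npc2 also with a TSS in an unchanged region. Lipa, the lysosomal acid lipase, was DOWN (3991 bp) and unchanged at different TSSs. Lrp1, an endocytic receptor, had TSSs in an UP region of 936 bp and in a DOWN region of 11081 bp. Stard4 and Nceh1 were unchanged. The 6 genes thus had 3 UP and 2 DOWN calls, Lrp1 counting in each, beside 21.4% UP and 8.91% DOWN among all genes.

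In all, 10 motifs were searched on both strands, from 250 bp before to 50 bp after the main TSS, and set beside the same window at 21911 protein-coding genes. CCAAT (NF-Y) was found in 6 of 7 members, all but Idi1, and in 38.6% of promoters. GGGCGG (SP1) was found in 6 of 7, all but Insig2, and in 45.3% of promoters, or 64.1% of those of genes with a TSS in a region. TCACNCCAC (SRE) was found in Hmgcs1 alone and in 1.22% of promoters. CACGTG (E-box) was found in Insig1 alone and in 7.75% of promoters. Without its last base the SRE, TCACNCCA, was found in Srebf2 and Hmgcs1 and in 3.90% of promoters, a choice made after the first matches were seen. Among the other 16 synthesis genes CCAAT was in 12 and GGGCGG in 13. The full SRE, TCACNCCAC, was in 0 of them, and TCACNCCA in 2, Fdft1 and Msmo1. In a wider window, from 500 bp before to 100 bp after the main TSS, CCAAT was in 7 of 7 members, Idi1 included, and in 57.7% of promoters.

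The motifs of ERS factors were not seen in the 7 windows. They were TGACGTGG (UPRE, in 0.712% of promoters), TGATGCAA (CARE, 0.968%), TGACGTCA (CRE, 2.50%) and the ER stress element ERSE, CCAAT followed by CCACG after 9 free bases (0.119%), which overlaps the NF-Y motif. TTANGTAA (D-box, in 2.07% of promoters) and CAAAGTCCA (HNF4, 0.424%) had 0 matches in the 7 windows as well. That no match was found says only that these letters are absent from these windows.

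Over the whole region at the TSS, Hmgcs1 held 8 CCAAT matches, 6 of them before the main TSS, a number reached by 0.660% of 6209 regions of like width. Idi1 held 7, reached by 1.29% of 6514 regions. Of these 7 matches, 5 began from 60 to 389 bp past the main TSS, where the pair printed above lies. They lay before the further protein-coding starts of Idi1, at 442 to 493 bp. A TGACGTCA match began 319 bp past the main TSS of Idi1, and 2.75% of like regions held this motif. The wide DOWN region of Insig2 held 32 CCAAT matches, reached by 2.24% of 134 regions of like width. The same region held 3 matches to TCACNCCA, at -3780, -1315 and 1923 bp from the main TSS, and 38.8% of like regions had as many. It also held 1 match to the full TCACNCCAC, as 35.8% of like regions did. GGGCGG, absent from the window at the main TSS of Insig2, had 5 matches in this region, and 40.3% of like regions had as many. In the regions of Srebf2 and Hmgcs1 the TCACNCCA match described above was the only one, and the regions of the other 4 genes held 0. The UP regions of Srebf2 and Sqle, with 5 and 7 CCAAT matches, were ordinary in this, since 44.3% and 17.9% of like regions had as many. Lss had 1.

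The protein-coding genes most like each member were those with the same classes at their TSSs and equal counts of regions in each class within 50 kb, ranked by the log2 difference in width of the TSS region. Among 9805 genes, Insig2 shared its pattern with 4, the nearest in width being Rnf144b (11576 bp), 0.31 narrower on the log2 scale. For Srebf2 there were 17, led by Ppa1 (3413 bp), for Lss 24, led by AW011738 (994 bp), for Sqle 33, led by Ing2 (3253 bp), and for Hmgcs1 62, led by Sel1l3 (1813 bp). Idi1 shared its pattern with 188 genes, led by Mak16 (1569 bp), and Insig1 with 276, led by Naca (4032 bp). Of the 7 genes, Insig2 thus had the fewest genes with its pattern and Insig1 the most.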

How the data were processed

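H3K27ac ChIP-seq libraries of MPH were made with 3 libraries and 1 input per treatment. Per the labels and the study's methods, the authors aligned reads to mm10 with Bowtie, removed duplicates and blacklisted stretches, and called broad peaks with MACS2 on pooled libraries. They counted reads in bins of 150 bp with csaw, filtered bins against input, normalized by loess, fitted a model paired by preparation and combined the bins of each peak. Peaks that met the FDR but not the ratio of UP to DOWN bins are in none of the lists. The deposited values are region starts and ends in base pairs on mm10. Depth is unknown, and pooled calling lets 1 library shape a region's edges.

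Regions were joined here to GENCODE M21 TSSs and gene bodies by position, with 1-based coordinates. Sequences came from GRCm38, and all 8 RefSeq promoter windows, found for 6 of the 7 genes, were identical to it. The main TSS was that of the best APPRIS principal transcript. The 7 genes and the lists were chosen with earlier results of these data known. All regions of the 7 genes, every related gene reported here at a changed region and the gene most like each member are named. Some genes of the pathway are not reported here. The counting and motif functions were tested on simulated data. Python 3.11.15, pysam 0.24.0, samtools 1.23.1 and matplotlib 3.10.9 were used. The gene lists LIVER-ID and UBQ were the authors'.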

Additional observations from a re-analysis of the deposited data

How the results depend on the processing

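The classes at the TSSs of the 7 genes were 5 UP, 1 DOWN and 1 unchanged with the main TSS alone, protein-coding transcripts alone, regions that reach 500 bp past the TSS both ways, TSSs within 1 kb, regions of at least 1 kb and each gene counted once. With RefSeq TSSs, an alternative added after the data were seen, they were 4, 1 and 1 for the 6 genes with an entry. When TSSs up to 10 kb outside a region counted, the UP and DOWN counts stayed at 5 and 1, and 5 genes had an unchanged region. Within 10 kb of a TSS lay 6 UP, 1 DOWN and 5 unchanged regions, in place of 12, 3 and 24 within 50 kb. With regions of at least 1 kb alone there were 11 unchanged regions within 50 kb. Of the related genes reported, 2 had a TSS in a DOWN region, against 1 by the main TSS alone and 4 with TSSs up to 10 kb away, and the SRE letters without the last base, also added later, were in 2 promoters in place of 1. The other 44 of 52 alternatives stayed within 1.5 times the value given. Among them, 9 related genes were UP by the main TSS alone, in place of 12. Likewise 9 UP regions, in place of 12, lay within 50 kb of a main TSS of the 7 genes.

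No paired analysis was possible because the lists hold no values per library, and leaving out a replicate was not possible either. Neither the size of a change nor a change below the authors' threshold is given in them, and unchanged means not called. The assignment of a distal region to a gene rests on distance.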
